A study of Macaca mulatta with 6 samples.

Results

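The genes described here are 36 genes of glycolysis and of the response to low oxygen, chosen by gene symbol from the 28536 genes of the count table. All 36 were found in the table and all 36 passed the filter on low counts, with 39 or more counts in every library. The libraries were made from RNA of the rhesus monkey trachea, 3 in each of 2 groups. Controls were treated with normal saline. The other group was treated with a tracheal lubricant coated with a material named Oxy@Lipo/Gel, in endotracheal intubation under general anaesthesia, and the labels name no intubation for the controls. Neither age, sex nor the animal behind each library is given in the sources used here. The p-values therefore speak only of the spread among these libraries, which may be that of tissue pieces and not of animals.

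In glycolysis, glucose is carried into the cell by transporters of the SLC2A family, phosphorylated by hexokinase, committed by phosphofructokinase, split, and oxidised to pyruvate, which lactate dehydrogenase can turn into lactate. Cells short of oxygen raise many of these steps through hypoxia-inducible factors (HIF), whose alpha subunits HIF1A and EPAS1 are marked for destruction by the prolyl hydroxylases of the EGLN family while oxygen is present. HIF target genes also cover blood vessel growth, autophagy of mitochondria, collagen hydroxylation and restraint of cell growth. HIF activity is set mainly at the level of protein, which was not measured.

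The libraries held 17097177 to 23405294 counts. Levels are given as CPM, counts scaled to a common library total, with library sizes adjusted by TMM (trimmed mean of M values), and as FPKM, which is per kilobase of gene length, where genes are compared with each other. Airway epithelium was present in all 6 libraries: the basal-cell keratin KRT5 ranged from 576 to 3023 CPM, the ciliated-cell factor FOXJ1 from 121 to 1024 CPM and the club-cell protein SCGB1A1 from 20.8 to 408 CPM. Control replicate 2 was lowest in both summed ciliated markers (602 CPM, against 1570 to 3749 in the others) and summed secretory markers. Control replicate 3 held thyroid genes at a summed 5634 CPM, against 10.6 to 22.6 CPM in the other libraries. Summed smooth muscle markers were 1101 to 3334 CPM in the controls, and 2431, 19198 and 26021 CPM in Oxy@Lipo/Gel replicates 1, 2 and 3. Summed cartilage markers were 145 to 272 CPM in the controls and 412 to 1123 CPM in the Oxy@Lipo/Gel group, and summed gland markers were 1545 to 2290 and 10098 to 30535 CPM. Every marker list had counts, and no listed marker found in the table was at 0 in all libraries. In bulk tissue, fewer cells of a type cannot be told apart from less RNA per cell.

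The comparison of the groups asks whether oxygen-response and sugar-burning genes differed in the airway wall between saline and Oxy@Lipo/Gel. None of the 36 genes passed the edgeR test at an adjusted p of 0.05 over all 18676 genes tested, of which 1.54% passed (0.851% higher and 0.685% lower). The summed level of the glycolytic enzymes differed by less than the spread within groups, while VEGFA, DDIT4, ANKRD37 and PFKFB3 were lower and EGLN3, PFKM and PKM higher in every Oxy@Lipo/Gel library than in every control library. EPAS1, the gene of HIF-2 alpha, averaged 3992 ± 2046 CPM in the controls and 1039 ± 577 CPM with Oxy@Lipo/Gel (mean ± SD, n = 3).

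At an unadjusted p under 0.05, 12 of the 36 genes differed (4 higher and 8 lower), or 33.3%, against 23.3% of all genes tested (10.7% higher and 12.6% lower). Groups did not overlap for 15 of the 36 genes, or 41.7%, against 29.9% of all genes. The Oxy@Lipo/Gel libraries were the higher ones in 4 of the 36 genes, against 2270 of 18676 genes tested, or 12.2%. They were the lower ones in 11 of the 36, against 3308 of 18676, or 17.7%. The median log2 fold change was -0.09 over the 36 genes and -0.04 over all genes tested, of which 47% lay above 0 and 53% below. DESeq2, run as an alternative, called 3 of the 36 genes higher (EGLN3, PFKM and PKM) and 5 lower (EPAS1, VEGFA, DDIT4, PFKFB3 and ANKRD37), where it called 13.3% of all genes (7.47% higher and 5.87% lower). Limma-voom called 0 of the 36 and 1.07% of all genes, and limma-trend called 0 of the 36 and 1.12% of all genes with 1 added to the FPKM before the log2, or 1.5% with 0.1 added. Adjusted p-values of the 8 genes that DESeq2 called, over all alternatives, ran from between 0.0044 and 0.0406 at the lowest, each in DESeq2, to between 0.358 and 0.465 at the highest.

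**Figure D1:**
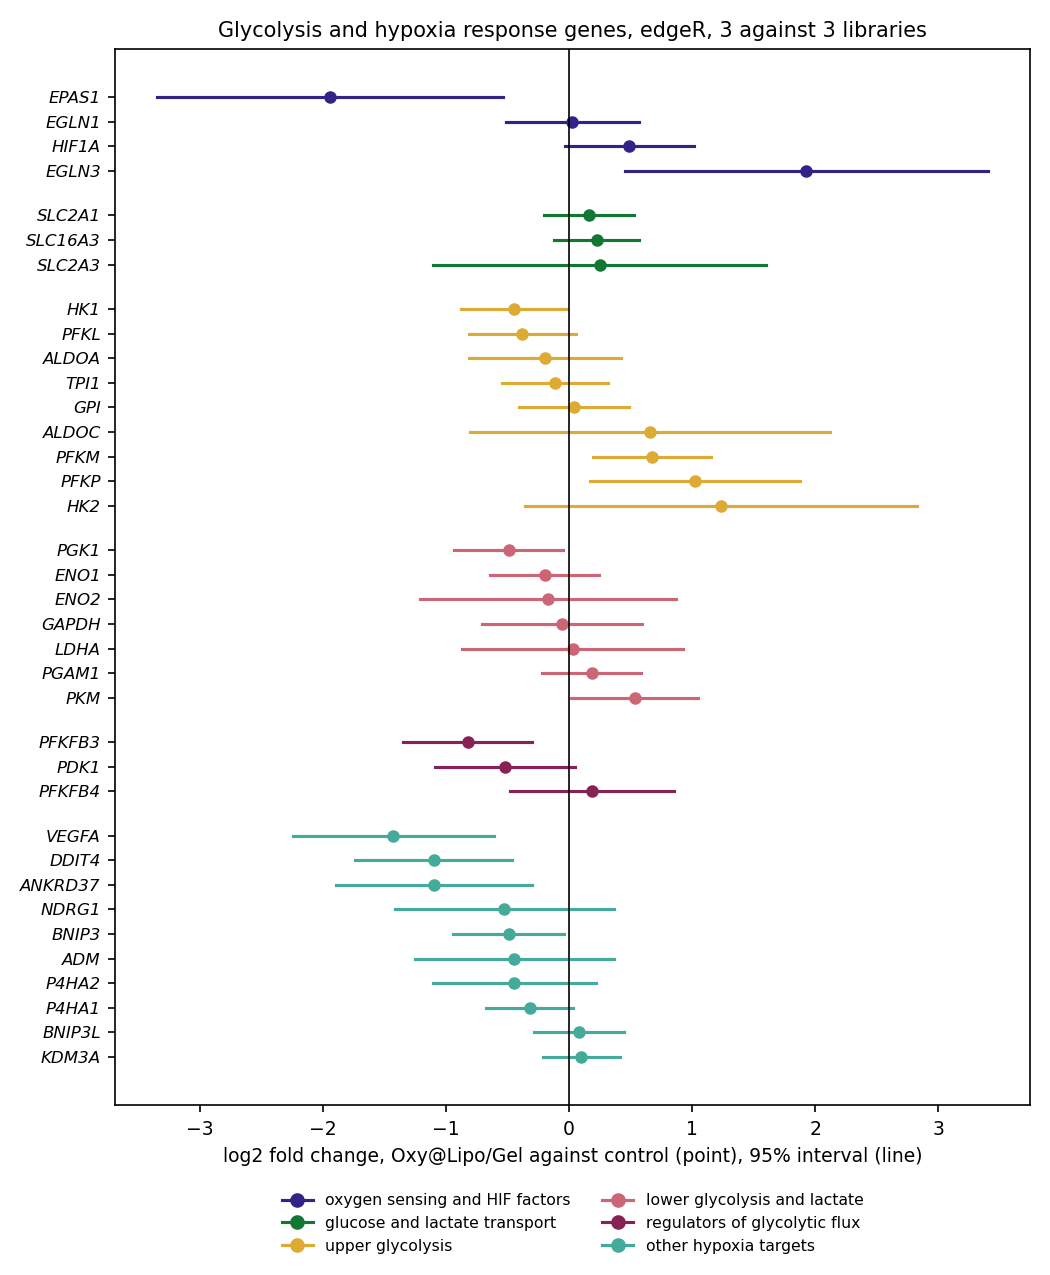
Log2 fold change of each of the 36 genes, Oxy@Lipo/Gel against control, by role group. Points are edgeR estimates and lines are their 95% intervals, not adjusted for the number of genes; EPAS1 lies lowest at -1.94 and EGLN3 highest at 1.93, and the enzymes of lower glycolysis lie between -0.49 and 0.53.

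Both HIF alpha subunits were measured well above the count filter and stood in opposite positions. EPAS1 measured 3661, 6183 and 2132 CPM in control replicates 1, 2 and 3, and 1703, 741 and 672 CPM in Oxy@Lipo/Gel replicates 1, 2 and 3. Every Oxy@Lipo/Gel library was below every control library, and control replicate 2 stood highest. The log2 fold change was -1.94 ± 0.59 (SE), with an edgeR adjusted p of 0.134. Per length EPAS1 was among the most abundant transcripts of the tissue, at 121 to 1035 FPKM, which put it between rank 43 and rank 416 of all genes by library.

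Levels of EPAS1 were listed beside those of the cells that could carry it. Summed basal-cell markers were 6404, 11454 and 2076 CPM in control replicates 1 to 3 and 3648, 1594 and 2752 CPM in Oxy@Lipo/Gel replicates 1 to 3, with all 7 markers below 0 on the log2 fold change scale and 2 of 7 at an unadjusted edgeR p under 0.05. Control replicate 2 was thus highest in both EPAS1 and basal-cell markers. Control replicate 3 was below Oxy@Lipo/Gel replicates 1 and 3 in basal-cell markers and above both in EPAS1. Summed basal-cell markers overlapped between groups, whereas EPAS1 did not. Summed endothelial markers were 344, 431 and 723 CPM in control replicates 1 to 3 and 190, 501 and 586 CPM in Oxy@Lipo/Gel replicates 1 to 3. Control replicate 3 was highest in these markers and lowest of the controls in EPAS1. The part of either cell type in the EPAS1 difference was not tested.

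HIF1A, the widely expressed HIF-1 alpha, measured 49.3, 66.0 and 39.0 CPM in the controls and 63.3, 73.6 and 79.9 CPM in the Oxy@Lipo/Gel group. The groups overlapped through control replicate 2, and the log2 fold change was 0.49 ± 0.22 (edgeR adjusted p = 0.239). EGLN3, a prolyl hydroxylase that is itself a HIF target, measured 20.0, 4.14 and 28.4 CPM in the controls and 61.2, 82.0 and 57.6 CPM with Oxy@Lipo/Gel. All 3 Oxy@Lipo/Gel libraries exceeded all 3 controls, with a log2 fold change of 1.93 ± 0.62 (edgeR adjusted p = 0.144). Without control replicate 2, the lowest library, the log2 fold change of EGLN3 was 1.47 ± 0.24 and the edgeR adjusted p 0.0650. Over all alternatives the adjusted p ranged from 0.0212 to 0.417. Control replicate 2 was picked out by its EGLN3 level, so the lower p is not separate support. EGLN1, the main oxygen-sensing hydroxylase in most tissues, had a log2 fold change of 0.03 with a 95% interval from -0.52 to 0.57.

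**Figure D2:**
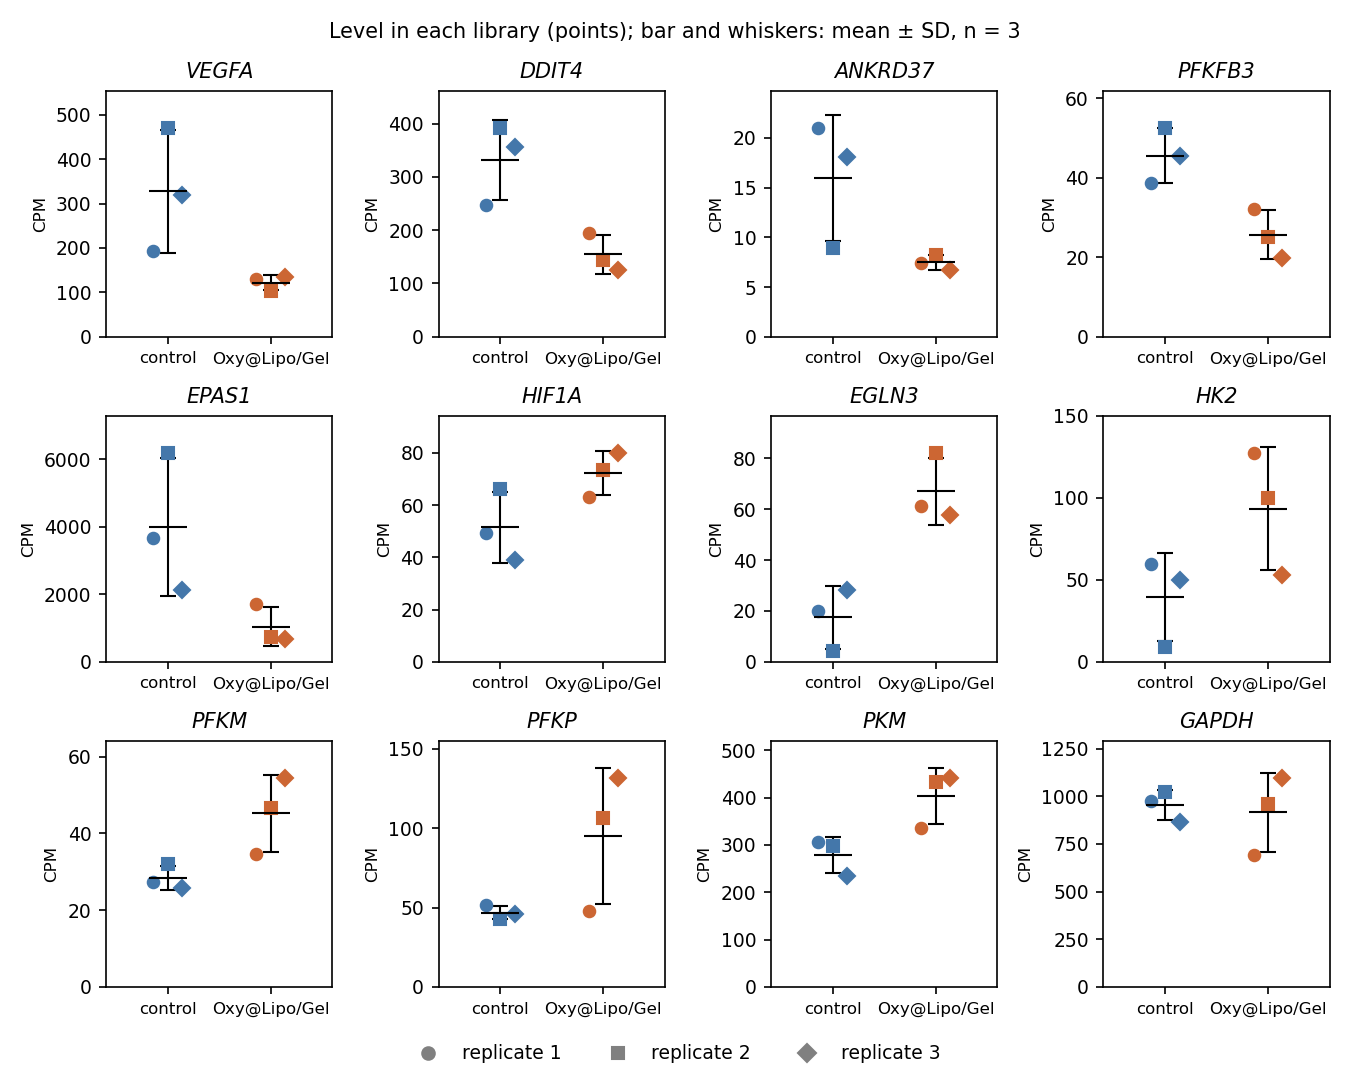
CPM of 12 genes in each library, with a linear axis from 0 in every panel; symbols mark replicates 1 to 3, horizontal bars the group mean and whiskers the SD (n = 3). VEGFA, DDIT4, ANKRD37, PFKFB3 and EPAS1 lie lower in all 3 Oxy@Lipo/Gel libraries, EGLN3, PFKM and PKM lie higher, and GAPDH overlaps.

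Transport genes for glucose and lactate had log2 fold changes of 0.16 to 0.25. SLC2A1, the basal glucose transporter GLUT1, measured 81.9, 73.6 and 70.3 CPM in the controls and 93.1, 86.5 and 72.8 CPM with Oxy@Lipo/Gel. The groups overlapped, and the 95% interval of the log2 fold change ran from -0.21 to 0.53. SLC16A3, the lactate exporter MCT4, measured 60.8, 62.2 and 52.3 CPM in the controls and 75.8, 63.9 and 65.2 CPM with Oxy@Lipo/Gel. The Oxy@Lipo/Gel libraries were all higher, with a log2 fold change of 0.23 ± 0.14 and an edgeR adjusted p of 0.387. SLC2A3, the high-affinity transporter GLUT3, measured 4.18, 4.82 and 12.8 CPM in the controls and 4.03, 11.1 and 10.8 CPM with Oxy@Lipo/Gel, so that each group held both low and high libraries.

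The 16 genes of glycolytic enzymes, from hexokinase to lactate dehydrogenase, summed to 3751, 3737 and 3305 CPM in the controls and 3019, 3739 and 3940 CPM in the Oxy@Lipo/Gel group. The group means of this sum were 3597 ± 254 and 3566 ± 484 CPM (SD, n = 3), a difference smaller than the spread within either group. None of the 16 passed the edgeR test, 5 had an unadjusted p under 0.05 (3 higher and 2 lower) where 23.3% of all genes did, and DESeq2 called 2, PFKM and PKM, where it called 13.3% of all genes. These shares were near those over all genes. Their log2 fold changes ran from -0.49 for PGK1 to 1.23 for HK2, with a median of -0.02.

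In upper glycolysis, the isoforms of phosphofructokinase stood on different sides of 0. PFKM, the muscle type of phosphofructokinase, measured 27.4, 31.9 and 25.8 CPM in the controls and 34.6, 46.7 and 54.4 CPM with Oxy@Lipo/Gel. The groups did not overlap, and the log2 fold change was 0.67 ± 0.20 (edgeR adjusted p = 0.132). PFKP, the platelet type, measured 51.4, 43.0 and 46.1 CPM in the controls and 47.7, 106 and 131 CPM with Oxy@Lipo/Gel. Oxy@Lipo/Gel replicate 1 lay within the control range, and the log2 fold change was 1.02 ± 0.36 (edgeR adjusted p = 0.164). With that library left out it was 1.34 and the edgeR adjusted p 0.0266, where 2.74% of all genes were called higher. Over all alternatives the adjusted p ranged from 0.0266 to 0.428. That library was picked out by its PFKP level, so the lower p is not separate support. PFKL, the liver type, had a log2 fold change of -0.38 ± 0.18 and groups that did not overlap (edgeR adjusted p = 0.262).

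Smooth muscle markers shared the order of PFKM and PFKP among the Oxy@Lipo/Gel libraries, replicate 1 lowest and replicate 3 highest. HIF1A, GAPDH, ALDOA and PKM, among others, had this order too. In Oxy@Lipo/Gel replicate 1, summed smooth muscle markers of 2431 CPM lay within the control range of 1101 to 3334 CPM. PFKM in that library, at 34.6 CPM, was above all controls, and PFKP, at 47.7 CPM, was within the control range. Among the controls, smooth muscle markers and PFKP were highest in replicate 1, and PFKM in replicate 2. All 12 smooth muscle markers had log2 fold changes above 0, from 2.52 to 3.75. All 12 had an unadjusted edgeR p under 0.05 and 0 passed at the adjusted threshold. Summed fibroblast markers also rose from replicate 1 to replicate 3 of the Oxy@Lipo/Gel group, at 426, 1611 and 1854 CPM against 438 to 536 CPM in the controls. Skeletal muscle markers, another source of PFKM, summed to 82.4 to 183 CPM in the controls and 81.0 to 106 CPM with Oxy@Lipo/Gel. The part of smooth muscle or fibroblasts in the phosphofructokinase values was not tested.

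HK1, the housekeeping hexokinase, measured 147, 169 and 118 CPM in the controls and 114, 101 and 102 CPM with Oxy@Lipo/Gel. Every Oxy@Lipo/Gel library was lower, with a log2 fold change of -0.45 ± 0.18 (edgeR adjusted p = 0.200). HK2, the inducible hexokinase and a HIF target, was followed after its values were seen. It measured 59.7, 9.10 and 50.1 CPM in the controls and 127, 99.9 and 53.1 CPM with Oxy@Lipo/Gel. Oxy@Lipo/Gel replicate 3 lay between control replicates 3 and 1, and the log2 fold change was 1.23 ± 0.67 (edgeR adjusted p = 0.314). Without control replicate 2, the lowest library, it was 0.76 (edgeR adjusted p = 0.290, in a range of 0.215 to 0.568 over all alternatives). Of the remaining upper enzymes, GPI, which isomerises glucose 6-phosphate, had a log2 fold change of 0.04 (95% interval -0.41 to 0.48) and TPI1, triosephosphate isomerase, one of -0.11 (-0.54 to 0.32). ALDOA, the main aldolase here, had a log2 fold change of -0.20, and ALDOC, the brain-type aldolase, one of 0.66 with a 95% interval from -0.81 to 2.12.

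In the lower pathway PGK1 and PKM stood apart in opposite directions. PGK1, which makes the first ATP of glycolysis, measured 222, 212 and 164 CPM in the controls and 131, 157 and 138 CPM with Oxy@Lipo/Gel. All Oxy@Lipo/Gel libraries were below all controls, with a log2 fold change of -0.49 ± 0.19 (edgeR adjusted p = 0.184). PKM, pyruvate kinase of muscle and most other tissues, measured 305, 297 and 234 CPM in the controls and 336, 434 and 441 CPM with Oxy@Lipo/Gel. Here all Oxy@Lipo/Gel libraries were higher (log2 fold change 0.53 ± 0.21, edgeR adjusted p = 0.203).

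The other lower enzymes overlapped between groups. ENO1, the widespread enolase, measured 355, 336 and 310 CPM in the controls and 256, 294 and 321 CPM with Oxy@Lipo/Gel, a log2 fold change of -0.20 ± 0.18. PGAM1, phosphoglycerate mutase, had one of 0.18 (95% interval -0.22 to 0.59). GAPDH, which is often used as a reference gene, averaged 955 ± 79.1 and 915 ± 206 CPM, and the 95% interval of its log2 fold change ran from -0.71 to 0.59. ENO2, the neuronal enolase, measured 74.0, 28.0 and 106 CPM in the controls and only 57.0 to 65.9 CPM across the Oxy@Lipo/Gel group; control replicate 3, the highest, also held summed Schwann-cell and neural markers at 245 CPM, against 38.7 and 48.5 CPM in the other controls. These markers were also at 151 and 183 CPM in Oxy@Lipo/Gel replicates 2 and 3, whose ENO2 levels of 65.9 and 62.0 CPM lay below that of control replicate 1. The part of nerve or thyroid tissue in the ENO2 value of that library was not tested.

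LDHA, the lactate-forming subunit of lactate dehydrogenase, was among the lowest of the 36 genes, at 1.86 to 3.94 CPM in the controls and 2.12 to 3.46 CPM with Oxy@Lipo/Gel. Per length it made up 3.50% to 8.24% of the lactate dehydrogenase signal in the 6 libraries, the rest being LDHB, the subunit of oxidative tissue, at 20.9 to 41.4 FPKM. Genes of glycolytic enzymes, LDHA and GAPDH among them, have processed pseudogenes in primates, and how reads that match several copies were counted is not given in the sources used here. The level of LDHA is therefore uncertain.

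Of the 3 regulators of flux, PFKFB3 differed most. PFKFB3, which makes the fructose 2,6-bisphosphate that activates phosphofructokinase and is a HIF target, measured 38.7, 52.5 and 45.4 CPM in the controls and 32.1, 25.0 and 19.8 CPM with Oxy@Lipo/Gel. The groups did not overlap, and the log2 fold change was -0.83 ± 0.22 (edgeR adjusted p = 0.110). Its relative PFKFB4 measured 9.62, 16.2 and 15.5 CPM in the controls and 12.0, 15.6 and 19.5 CPM with Oxy@Lipo/Gel, and overlapped. PDK1, a kinase that inhibits pyruvate dehydrogenase, measured 13.6, 21.7 and 13.1 CPM in the controls and 11.6, 10.9 and 11.2 CPM with Oxy@Lipo/Gel. All Oxy@Lipo/Gel libraries were lower (log2 fold change -0.52 ± 0.24, edgeR adjusted p = 0.247).

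Among the 10 other hypoxia targets, 8 had log2 fold changes below 0, against 53% of all genes. Groups did not overlap for 5 of the 10, all lower, against 17.7% of all genes. At an unadjusted edgeR p under 0.05, 4 were lower, against 12.6% of all genes, and 0 passed the adjusted threshold. DESeq2 called 3 of the 10 lower, against 5.87% of all genes. The role groups were chosen with earlier results of these data known. EGLN3 and HK2, described as HIF targets in other groups, had log2 fold changes of 1.93 and 1.23. PFKFB3, another such target, was at -0.83. Summed over the 10 genes, the level was 822, 1264 and 1093 CPM in the controls and 614, 589 and 596 CPM with Oxy@Lipo/Gel. VEGFA, the main growth factor of blood vessels, measured 194, 470 and 320 CPM in the controls and 129, 102 and 134 CPM with Oxy@Lipo/Gel. Every Oxy@Lipo/Gel library was lower, and the controls spread widely. Its log2 fold change of -1.43 ± 0.34 had the smallest p of the 36 genes (edgeR adjusted p = 0.0934).

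DDIT4, also called REDD1, an inhibitor of the growth kinase mTORC1, measured 248, 392 and 356 CPM in the controls and 195, 144 and 125 CPM with Oxy@Lipo/Gel. Again every Oxy@Lipo/Gel library was lower, with a log2 fold change of -1.10 ± 0.27 (edgeR adjusted p = 0.0956). DDIT4 is known to respond to glucocorticoids as well as to low oxygen. Summed glucocorticoid-response genes were 1329 to 2357 CPM in the controls and 879 to 1308 CPM with Oxy@Lipo/Gel. By edgeR 3 of 9 tested genes were lower and 0 higher, against 0.685% and 0.851% of all genes. Summed clock genes were 634 to 974 CPM in the controls and 381 to 464 CPM with Oxy@Lipo/Gel. By edgeR 2 of 13 were higher and 5 lower, against 0.851% and 0.685% of all genes. The clock sum pools genes in both directions, 3 with log2 fold changes above 0 and 10 below. The part of either programme in the values of DDIT4 and VEGFA was not tested.

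ANKRD37, a small ankyrin-repeat protein induced by HIF, measured 21.0, 8.89 and 18.1 CPM in the controls and 7.39, 8.26 and 6.76 CPM with Oxy@Lipo/Gel. Control replicate 2 lay just above the Oxy@Lipo/Gel range, and the log2 fold change was -1.10 ± 0.33 (edgeR adjusted p = 0.134). Without control replicate 2 it was -1.39 and the edgeR adjusted p 0.0493, where 0.434% of all genes were called lower. Over all alternatives the adjusted p ranged from 0.0406 to 0.410. Control replicate 2 was picked out by its ANKRD37 level, so the lower p is not separate support. BNIP3, a receptor for mitochondrial autophagy, averaged 70.5 ± 11.7 and 50.2 ± 7.88 CPM with groups that did not overlap, whereas its relative BNIP3L had a log2 fold change of 0.08 (95% interval -0.29 to 0.45). P4HA1, a catalytic subunit of collagen prolyl 4-hydroxylase, averaged 33.0 ± 2.96 and 26.4 ± 2.59 CPM without overlap, and P4HA2 overlapped with a log2 fold change of -0.44. NDRG1, a stress-response protein, and ADM, the vessel-dilating peptide adrenomedullin, had log2 fold changes of -0.53 and -0.45 with overlapping groups. KDM3A, a histone demethylase under HIF control, had a log2 fold change of 0.10 with a 95% interval from -0.21 to 0.41.

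**Figure D3:**
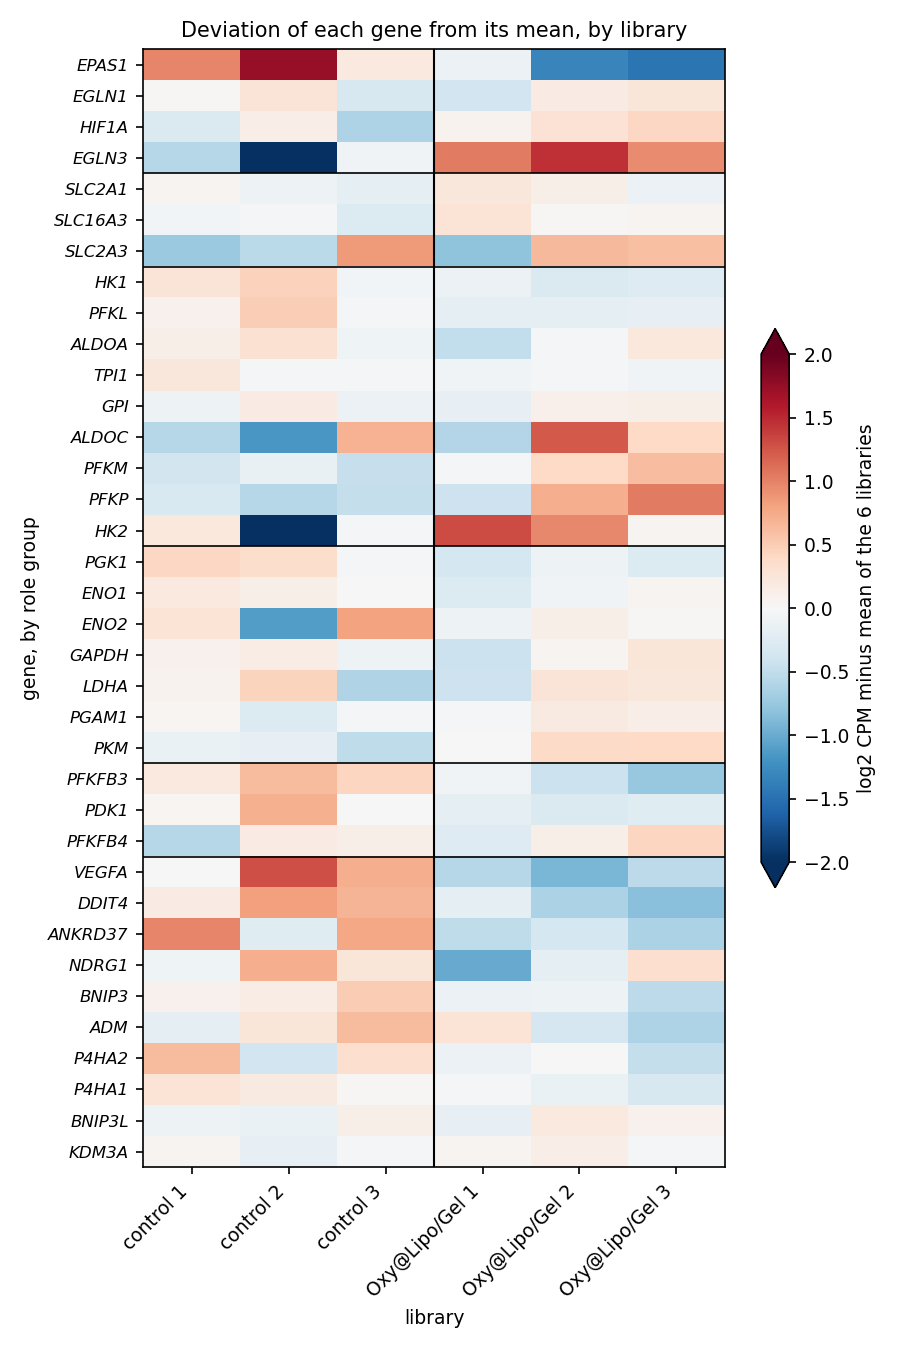
Difference of each gene's log2 CPM from its mean over the 6 libraries, by library (columns) and role group (rows, separated by lines); red is above and blue below the mean, with the scale ending at 2 in either direction. The lower block of hypoxia targets is mostly red in the controls and blue with Oxy@Lipo/Gel, while HK2, EGLN3, ALDOC and ENO2 are bluest in control replicate 2.

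Libraries of the same group differed more for some genes than for others. In the controls the coefficient of variation was 70.4% for EGLN3, 69.1% for ALDOC, 67.8% for HK2, 66.1% for SLC2A3 and 56.5% for ENO2, and 6.87% for ENO1, 7.38% for KDM3A and 7.97% for SLC2A1. Control replicate 2 held the highest level of 12 of the 36 genes and the lowest of 7. Oxy@Lipo/Gel replicate 1 held the lowest level of 10. The map of differences by library shows these positions. For 23 of the 36 genes, leaving out some library moved the log2 fold change by over 1.5 times or turned its sign. Among genes whose groups did not overlap, PFKL was at -0.21 and PDK1 at -0.26 without control replicate 2, and SLC16A3 was at 0.14 without control replicate 3. HIF1A was at 0.32 without control replicate 3.

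The make-up of each family was followed as each gene's share of the family's summed FPKM. A total of 27 shares in 10 families were compared with an exact two-sided permutation test over libraries, in which 3 against 3 cannot go below p = 0.10, so none could pass. Shares within a family sum to 100% and are not independent. EPAS1 made up 98.2%, 98.5% and 97.5% of the HIF alpha FPKM in the controls and 95.3%, 88.4% and 86.4% with Oxy@Lipo/Gel. HIF1A supplied nearly all of the rest, at 1.81% ± 0.483 in the controls and 9.82% ± 4.61 with Oxy@Lipo/Gel (SD, n = 3; exact p = 0.10, adjusted 0.27). No library of one group reached the range of the other for either gene.

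The make-up of the HIF prolyl hydroxylases also separated the groups. EGLN3 made up 21.1%, 3.90% and 30.5% of the family in the controls and 53.7%, 57.3% and 48.2% with Oxy@Lipo/Gel, while EGLN2 averaged 58.3% ± 10.9 in the controls and 28.4% ± 3.13 with Oxy@Lipo/Gel (exact p = 0.10 for both, adjusted 0.27). HK2 made up 21.7%, 3.55% and 22.2% of hexokinase FPKM in the controls and 43.1%, 39.7% and 25.8% with Oxy@Lipo/Gel. For phosphofructokinase the share of PFKM was steady within groups, at 12.1%, 11.7% and 12.6% in the controls and 17.0%, 17.7% and 18.4% with Oxy@Lipo/Gel. PFKL averaged 70.4% ± 3.76 and 51.4% ± 10.2, and PFKFB3 in its own family averaged 36.3% ± 2.14 and 23.1% ± 4.79. In each of these the groups did not overlap, with an exact p of 0.10 (adjusted 0.27).

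Shares that overlapped between groups included those of aldolase, enolase, lactate dehydrogenase, the glucose transporters and the collagen prolyl hydroxylases. ALDOA made up 89.96% to 98.4% of aldolase FPKM over all libraries, and ENO1 75.1% to 90.8% of enolase FPKM. These levels per length rest on the gene lengths behind the deposited FPKM, which a count and an FPKM value give back, and which ran from 680 bases for ANKRD37 to 17660 for PDK1. PFKFB3 had 12319 bases against 3952 for PFKFB4, and both the order of these levels and the differences in share depend on those lengths. From counts without length, the difference for EGLN3 was 22.6 in place of 34.6 percentage points, and that for EGLN1 was 1.53 in place of -4.67.

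**Figure D4:**
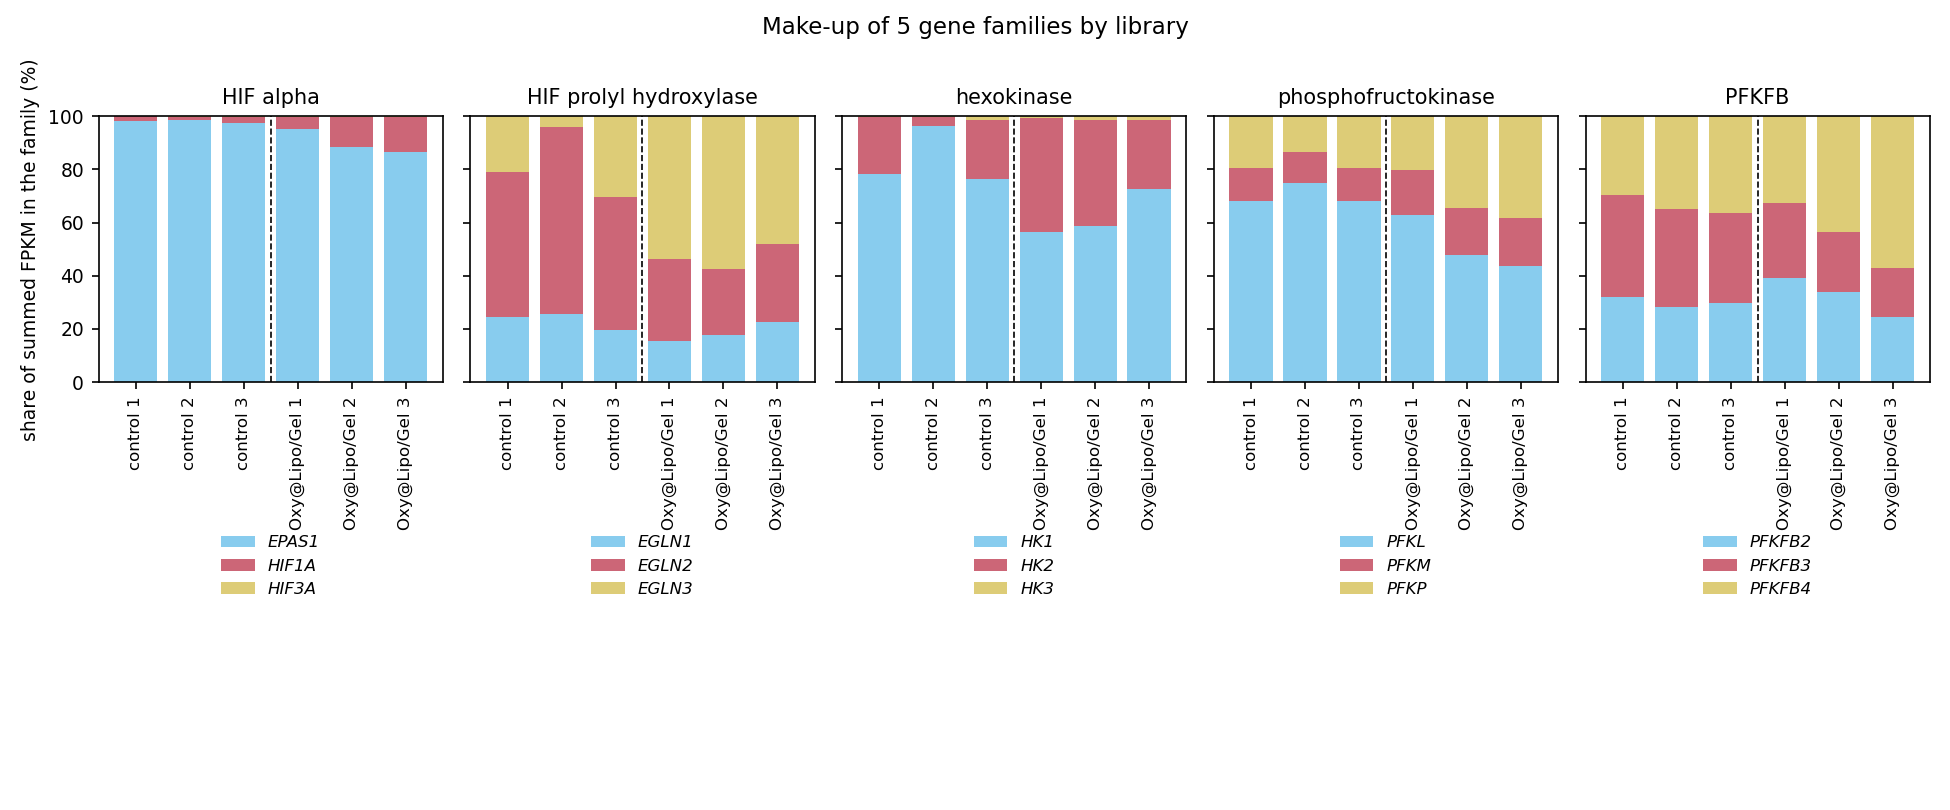
Share of each gene in the summed FPKM of 5 families (stacked bars, in percent), by library, with a dashed line between control and Oxy@Lipo/Gel. EPAS1 fills 97.5% or more of the HIF alpha bar in each control and 86.4% to 95.3% with Oxy@Lipo/Gel, and EGLN3 fills 48.2% or more of the prolyl hydroxylase bar in each Oxy@Lipo/Gel library.

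Further genes of these pathways were listed by function: 98 genes, of which 88 passed the count filter. In edgeR, 1 of these 88 was lower (ANGPTL4), 0 were higher and 87 did not pass. Over all genes 0.685% were lower and 0.851% higher. The median log2 fold change of the 88 was 0.02. ANGPTL4, a lipase inhibitor induced by HIF, by fasting and by glucocorticoids, fell from 23.3, 33.7 and 29.8 CPM in the controls to 11.6, 11.9 and 8.04 CPM with Oxy@Lipo/Gel. The groups were well apart, with a log2 fold change of -1.46 ± 0.23 (edgeR adjusted p = 0.0420). It did not pass when any single library was left out (adjusted p up to 0.194), nor in limma-voom, while DESeq2 called it. DESeq2 also called 7 of the 88 genes higher and 4 others lower, where it called 7.47% of all genes higher and 5.87% lower.

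Among 36 tested genes of other glycolytic and gluconeogenic steps, 0 passed in edgeR. An unadjusted edgeR p under 0.05 was found for 4, or 11.1%, against 23.3% of all genes. DESeq2 called 1, PDK4, where it called 13.3% of all genes. PDK4, a fasting-induced relative of PDK1, measured 41.0, 76.0 and 105 CPM in the controls and 13.5, 26.6 and 15.2 CPM with Oxy@Lipo/Gel, without overlap (log2 fold change -2.003 ± 0.42, edgeR adjusted p = 0.0735). SLC16A7, the pyruvate and lactate carrier MCT2, measured 30.6, 29.1 and 18.7 CPM in the controls and 14.1, 16.6 and 16.7 CPM with Oxy@Lipo/Gel, again without overlap (edgeR adjusted p = 0.137).

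Of 13 other HIF regulators 0 passed in edgeR and 4 had an unadjusted p under 0.05, all lower, against 12.6% of all genes. DESeq2 called 2, both lower, against 5.87% of all genes. HIF3A, an alpha subunit that can restrain the others, measured 5.14, 14.9 and 5.80 CPM in the controls and 3.24, 2.57 and 3.11 CPM with Oxy@Lipo/Gel (edgeR adjusted p = 0.132). EGLN2, another of the prolyl hydroxylases, measured 144, 209 and 129 CPM in the controls and 98.5, 99.2 and 97.2 CPM with Oxy@Lipo/Gel (edgeR adjusted p = 0.134). In both genes every Oxy@Lipo/Gel library was below every control library, and control replicate 2 stood highest. Without it the log2 fold change of HIF3A was -0.88, against -1.53 with it. Over all alternatives the log2 fold change of HIF3A ran from -1.80 to -0.43. That of EGLN2 ran from -0.85 to -0.48, against -0.71 in the main fit. The adjusted p over all alternatives reached 0.421 for both genes.

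The 39 tested genes of the second list of hypoxia targets held ANGPTL4 as the 1 that passed, with 18 log2 fold changes above 0 and 21 below. At an unadjusted edgeR p under 0.05, 10 were higher and 6 lower, against 10.7% and 12.6% of all genes. DESeq2 called 7 higher and 2 lower, against 7.47% and 5.87% of all genes. Groups did not overlap for 9 higher and 7 lower, against 12.2% and 17.7% of all genes. PLOD2, a HIF-induced collagen lysyl hydroxylase, measured 11.6, 9.23 and 17.9 CPM in the controls and 33.0, 42.7 and 35.0 CPM with Oxy@Lipo/Gel. Its groups did not overlap, in the opposite direction to VEGFA, and it did not pass (log2 fold change 1.51 ± 0.27, edgeR adjusted p = 0.0550).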

How the data were processed

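Gene counts in the deposited table are whole numbers, in 6 columns, 1 per library. The deposited FPKM values follow from those counts: the gene length they imply was the same whole number in all libraries (to 0.01 base) for each of 17796 genes that reached 5 counts in all 6. Libraries were selected for poly(A) and made strand-specific with dUTP, per the labels' protocols, whose extraction text speaks of cell lines whereas tracheal tissue stands in the treatment protocol and a lubricated catheter in the tissue field. The builds GRCm38 (a mouse build), rheMac8 and Mmul_8.0.1 are named without a role, per the submitters' processing notes. Which aligner and counter were used, and whether counting used strand, is not given in the sources used here.

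Groups and replicate numbers came from the sample descriptions. Counts were fitted with edgeR 4.0.16 in R 4.3.3 (quasi-likelihood F test, TMM, filterByExpr with a minimum count of 10 and total of 15, group as the only term, Benjamini-Hochberg over 18676 genes, threshold 0.05). SE is the size of the log2 fold change divided by the square root of F. The test was also run on simulated counts, from which no result is given here. Alternatives were other size factors and filters, DESeq2 1.42.0, limma-voom and limma-trend (limma 3.58.1) on log2(FPKM + 1) and log2(FPKM + 0.1), a replicate block, and each library left out. Figures used Python 3.11.15 and matplotlib 3.10.9. The 36 genes, the role groups and all lists were chosen with earlier results of these data known. Values per library were given for up to 3 genes with the smallest p in each role group, and for the genes past the threshold and the 2 with the smallest p in each further list. HK2, ENO2, LDHA, GAPDH and LDHB were described after their values were seen. Every pair of libraries differed beyond sampling noise, with chi-square over its degrees of freedom at 49.95 or above. Precision rests on the spread of 3 libraries a group, since every gene of the 36 had 39 or more counts.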

Additional observations from a re-analysis of the deposited data

How the results depend on the processing

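With other size factors or filters, none of the 36 genes changed direction and 0 passed, although all genes called went from 287 to 183 on library totals alone and to 70 with 10 counts in all libraries. DESeq2 called 2492 genes, or 13.3% of all tested. It called 3 of the 36 higher and 5 lower, and 7 further pathway genes higher and 5 lower. Leaving out one library gave 0 to 628 genes called, 0 to 1 of the 36 higher, 0 to 1 lower, 0 to 3 further pathway genes higher and 0 to 0 lower, and a median log2 fold change of the 36 genes from -0.15 to 0.0237. ANGPTL4 was lost (0 genes lower) on library totals, with 10 counts in all libraries, in limma-voom and both limma-trend fits, and under the replicate block. The replicate block left 0 genes called. Same-numbered libraries did not deviate together (correlations 0.234, -0.35 and -0.162 for numbers 1, 2 and 3), so the numbers are not taken as pairs. Direction reversed for ENO2, which was at 0.0354 in limma-voom, at 0.0517 and 0.0652 in limma-trend with pseudocounts of 1 and 0.1, and at 0.00966 with the replicate block. With a library left out, log2 fold changes ranged from -0.12 to 0.19 for EGLN1, -0.0358 to 0.94 for SLC2A3, -0.0205 to 0.12 for GPI, -0.21 to 0.10 for GAPDH, -0.55 to 0.26 for ENO2, -0.22 to 0.29 for LDHA and -0.0225 to 0.35 for PFKFB4. From summed counts, which are not per length, the difference in share was 4.98 points for PFKM, 0.0891 for HIF3A, 22.6 for EGLN3 and 1.53 for EGLN1, against 5.56, 0.0392, 34.6 and -4.67 points from FPKM. The cause of these changes was not tested.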
